A study of Mus musculus with 6 samples.

Results

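At the base of each small intestinal crypt, stem cells that carry the receptor Lgr5 divide and renew the villus epithelium, wedged between the Paneth cells that feed and protect them. Their state depends on Wnt signalling, in which secreted Wnt proteins and R-spondins act through Frizzled, Lrp and Lgr receptors to keep beta-catenin from destruction, so that it can enter the nucleus with TCF factors and turn on target genes. The 10 genes described here are known markers of these stem cells or known Wnt targets, namely Lgr5, Olfm4, Ascl2, Axin2, Smoc2, Sox9, Cd44, Myc, Ephb2 and Rnf43, out of 22700 gene identifiers in the deposited table. They were picked by name, with no threshold on their values, at a time when earlier results of these data were known.

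The middle small intestinal mucosa of C57BL/6 mice was sequenced for 3 alk-SMase knockout (KO) mice, giving K79S, K82S and K86S, and for 3 wild-type (WT) mice, giving W83S, W89S and W90S, each library being from its own mouse. In the KO mice, Cre recombinase had removed exon 2 of Enpp7, the gene of alkaline sphingomyelinase, which cleaves dietary sphingomyelin at the brush border. The labels name no treatment, and the age and sex of the mice and the promoter that drove Cre are not given in the sources used here. The comparison asks which genes differ in the intestine when this enzyme is lost.

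Gene identifiers in the deposited table stand beside the values of other genes, and were moved back to their own rows by rank. An identifier's rank by the K79S value beside it, plus an offset of at most 3, gave the rank by W83S of its true row. This placed 12402 identifiers, among them 7 of the 10 genes: Olfm4, Axin2, Smoc2, Sox9, Myc, Ephb2 and Rnf43. Lgr5, Ascl2 and Cd44 fell outside the ranges of the rule, and their values in 5 of the libraries were not analysed here. Values with at most 6 decimals mark rows of a single transcript, and 99.7% of the placed genes with 1 annotated transcript stood on such a row, against 34.3% and 35.5% when every gene was moved by 1 row down or up. The offsets had themselves been read from these decimals. Among identifiers within 100 ranks of each of the 7 genes, and within the same range of the rule, all single-transcript genes stood on such a row, except around Ephb2 with 45 of 47. Ephb2 lies 12 ranks from the end of its range, so its row is the least certain. Smoc2 has 7 annotated transcripts but stands on a row with 6 decimals, as do 5.80% of placed genes with several transcripts.

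For Lgr5, Ascl2 and Cd44 the W83S level alone could be bracketed, because the order of the identifiers is the order of their W83S values. Levels are given in FPKM, a fragment count divided by transcript length and by library size. Within 40 ranks of its place, Lgr5 had 0.164 to 0.170 FPKM in W83S, Ascl2 0.876 to 0.896 FPKM and Cd44 0.685 to 0.704 FPKM. The rule gives no offset at their ranks, so these levels hold only if each place in the order is right to within 40 ranks. All 3 brackets lie under the 1 FPKM used below as the limit on low values. Lgr5 is the R-spondin receptor that defines the stem cells, Ascl2 the transcription factor that maintains them, and Cd44 an adhesion receptor for hyaluronan.

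Libraries differed in ways that genotype does not explain. W83S held 38524 FPKM summed over the 6 placed genes of gastric epithelium, against 0 to 5.24 FPKM in the other 5 libraries. W83S also led for pancreatic acinar genes, with 14.5 FPKM over the 2 placed genes against 1.08 to 3.91 FPKM. In K79S the Y-linked genes Ddx3y and Eif2s3y had 0.0279 and 0 FPKM, against 2.93 to 4.01 and 5.69 to 8.16 FPKM elsewhere. These 2 genes were picked after their values were seen. Enpp7 had 129 to 669.7 FPKM in KO and 406 to 667 FPKM in WT, and the level of the whole gene does not report on the missing exon. K82S was lowest for Enpp7, and leaving it out raised the number of rows past the thresholds from 1 to 1184. The parts of these libraries in the results below were not tested, and some values without them are given below. The genes of villus enterocytes summed to 24603 to 41669 FPKM in KO and 33522 to 38178 FPKM in WT, so that the defining genes of the small intestinal epithelium were present in all 6 libraries. K82S alone gave the lowest of these sums, 24603 FPKM, while every other library reached at least 33522 FPKM. Most genes of this list were lowest in K82S, but Ada and Anpep were not. The part of this lower sum in the results with and without K82S was not tested.

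The promoters of 2 of the genes are shown, 1 whose KO and WT libraries did not overlap and 1 whose libraries did. Each is the RefSeq window of 300 bases on GRCm38.p6, from 250 bases before the transcription start to 50 after it. That of Olfm4 is chr14:80000052-80000351 on the plus strand, and its capitals mark TGGGAA, the core of the site of RBPJ, the DNA-binding partner of Notch. That of Axin2 is chr11:108920099-108920398 on the plus strand, and its capitals mark GGGCGG, the GC box bound by Sp1.
Olfm4: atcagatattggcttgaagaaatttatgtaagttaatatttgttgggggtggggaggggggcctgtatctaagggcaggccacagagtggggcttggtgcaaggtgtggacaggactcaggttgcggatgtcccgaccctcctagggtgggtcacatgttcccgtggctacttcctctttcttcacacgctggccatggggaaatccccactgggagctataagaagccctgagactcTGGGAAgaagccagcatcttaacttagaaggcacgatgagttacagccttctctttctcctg
Axin2: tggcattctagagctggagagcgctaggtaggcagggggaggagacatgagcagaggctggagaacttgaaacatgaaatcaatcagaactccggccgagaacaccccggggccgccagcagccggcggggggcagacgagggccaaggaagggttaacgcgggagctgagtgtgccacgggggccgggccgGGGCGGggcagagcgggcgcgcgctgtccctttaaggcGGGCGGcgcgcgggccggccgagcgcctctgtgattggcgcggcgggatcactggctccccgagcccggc

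The Olfm4 window was 52.3% G and C and held 1 TGGGAA, and the Axin2 window was 70.0% G and C and held 2 GGGCGG. On both strands TGGGAA was found in 25.6% of all 32851 windows and GGGCGG in 35.7%. Of the 10 genes, Olfm4, Axin2, Ephb2, Rnf43, Ascl2 and Cd44 had a window, 7 windows in all, and CTTTGAT, a TCF and LEF motif, was in 0 of them and in 3.73% of all windows. Matches of TGGGAA and GGGCGG cannot overlap each other, and a match is a description of the letters only. The motifs were chosen after the values of the genes were seen. The Olfm4 window lies inside the gene as GENCODE draws it, since RefSeq starts the transcript further downstream.

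Of the stem cell markers, Olfm4 and Smoc2 had lower mean levels in KO than in WT, as had the Wnt targets Sox9, Myc and Ephb2, while Axin2 and Rnf43 had nearly equal means. Olfm4 differed most, at 12.3 ± 8.09 FPKM in the KO mice against 43.9 ± 18.3 FPKM in the WT mice (SD, n = 3), followed by Smoc2, Sox9 and Myc with mean WT levels 1.94 to 2.78 times those in KO. None of the 7 genes passed both thresholds, an adjusted p under 0.05 and a change of over 1.5-fold in either direction (limma, Benjamini-Hochberg adjustment), at which 0.00764% of all 13089 tested rows were called. An unadjusted p under 0.05 was reached by 4 of the 7, all lower in KO, where 9.64% of all rows had such a p and were lower. Every KO library was lower than every WT library for 3 of the 7, Olfm4, Smoc2 and Myc, against 11.3% of all rows, and the reverse held for 0 of 7 against 5.90% of all rows. The fitted fold change was below 2/3 for 4 of the 7 and for 10.4% of all rows. With 3 mice per genotype, an exact two-sided permutation test of 1 gene cannot go below p = 0.1. In whole mucosa, fewer cells of a type and less RNA per cell cannot be told apart.

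**Figure D1:**
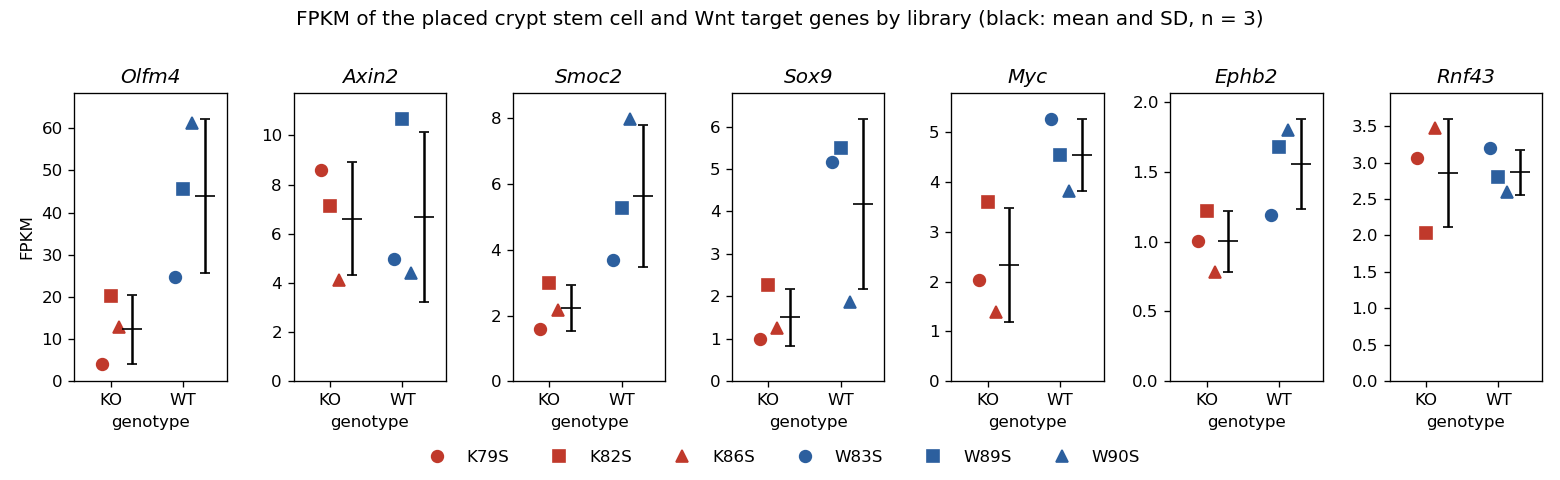
FPKM of the 7 placed genes in each library (vertical axes, FPKM from 0, a separate scale for each gene), for KO libraries in red and WT libraries in blue, with the mean and SD of 3 libraries in black. For Olfm4, Smoc2 and Myc all red points lie below all blue points, and for Axin2 and Rnf43 the means of the genotypes lie close to each other.

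Olfm4, on the plus strand of chromosome 14 of mm10 (GRCm38, GENCODE M21 annotation) from 79984081 to 80023139, encodes olfactomedin 4, a secreted glycoprotein that marks crypt base stem cells. Its level was 3.98 FPKM in K79S, 20.1 FPKM in K82S and 12.8 FPKM in K86S, and 24.8 FPKM in W83S, 45.6 FPKM in W89S and 61.3 FPKM in W90S. The groups did not overlap, although K82S and W83S lay close together, with the lower of the WT libraries 1.23 times the higher of the KO libraries. On the log2(FPKM + 1) scale, the fold change was -1.90 with an SE of 0.57 (limma, adjusted p = 0.393), and the exact permutation test gave p = 0.1. Without K79S, its lowest library, it was -1.30 (limma, adjusted p = 0.760), and without K82S it was -2.35 (limma, adjusted p = 0.0568). The difference between the genotypes was thus set against a spread of 5.06 times among the KO libraries and 2.47 times among the WT libraries.

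Smoc2, on the plus strand of chromosome 17 from 14279506 to 14404790, encodes a secreted calcium-binding matricellular protein and is part of the known Lgr5 stem cell signature. It had 1.58 FPKM in K79S, 2.97 FPKM in K82S and 2.16 FPKM in K86S, and 3.70 FPKM in W83S, 5.26 FPKM in W89S and 7.98 FPKM in W90S. All KO libraries were below all WT libraries, and W90S and K79S were again the highest and the lowest, as for Olfm4. Its log2 fold change of -1.01 had an SE of 0.27 (limma, adjusted p = 0.393), and moved to -0.86 without K79S and -0.77 without W90S. This was the smallest standard error relative to its fold change among the 7 genes.

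Sox9, on the plus strand of chromosome 11 from 112782224 to 112787760, encodes a transcription factor of crypt cells that is also needed for Paneth cells. It had 0.996 FPKM in K79S, 2.26 FPKM in K82S and 1.25 FPKM in K86S, and 5.17 FPKM in W83S, 5.49 FPKM in W89S and 1.87 FPKM in W90S. The groups overlapped, since W90S lay below K82S, while W83S and W89S were both above all KO libraries. A log2 fold change of -0.99 with an SE of 0.36 was found (limma, adjusted p = 0.393), and p = 0.2 in the exact permutation test. The highest of the WT libraries for Olfm4 and Smoc2 was thus the lowest of them for Sox9. Without W83S, the library with gastric transcripts, the log2 fold change of Sox9 was -0.82, and without W89S it was -0.78. The part of W83S in this difference was not tested.

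Myc, on the plus strand of chromosome 15 from 61985391 to 61990374, encodes the transcription factor that drives cell growth and division downstream of Wnt. It had 2.03 FPKM in K79S, 3.59 FPKM in K82S and 1.38 FPKM in K86S, and 5.26 FPKM in W83S, 4.54 FPKM in W89S and 3.82 FPKM in W90S. The groups did not overlap, and K82S and W90S were separated by a factor of 1.06. The log2 fold change was -0.78, with an SE of 0.25 (limma, adjusted p = 0.393). W83S, the library with gastric transcripts, was the highest for Myc, and without W83S the log2 fold change was -0.69. The part of W83S in this difference was not tested. Without K82S, Myc alone of the 7 genes passed the thresholds, with a log2 fold change of -1.04 (limma, adjusted p = 0.0333), where 9.28% of the 12764 rows tested passed and 8.88% passed and were lower in KO. Its adjusted p was between 0.0333 and 0.760 over all single changes of the processing.

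Ephb2, at 136647539 to 136835988 of chromosome 4 (minus strand), encodes a receptor for ephrin-B ligands that keeps crypt cells in place along the crypt axis. It had 1.00 FPKM in K79S, 1.22 FPKM in K82S and 0.786 FPKM in K86S, and 1.19 FPKM in W83S, 1.68 FPKM in W89S and 1.80 FPKM in W90S. W83S lay just below K82S, and the other WT libraries lay above all KO libraries. Its log2 fold change was -0.35, with an SE of 0.17 (limma, adjusted p = 0.411) and a 95% interval from -0.75 to 0.05. On the next row of the table, which the neighbouring offset would give it, the values were 3.20, 2.95 and 2.05 FPKM in the KO libraries and 1.19, 3.12 and 2.75 FPKM in the WT libraries. That row has 6 decimals and Ephb2 has 6 annotated transcripts.

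Axin2 and Rnf43 are both negative feedback genes of the pathway. Axin2, on the plus strand of chromosome 11 from 108920349 to 108950783, encodes a scaffold of the beta-catenin destruction complex and is widely used as a readout of Wnt activity. It had 8.61 FPKM in K79S, 7.12 FPKM in K82S and 4.11 FPKM in K86S, and 4.96 FPKM in W83S, 10.7 FPKM in W89S and 4.40 FPKM in W90S. Each genotype held both high and low libraries, with K79S among the high and W90S among the low, the other way round from Olfm4. The log2 fold change was 0.03 with a 95% interval from -0.83 to 0.89, so that neither a rise nor a fall of 1.5-fold could be set aside.

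Rnf43, on the plus strand of chromosome 11 from 87662722 to 87735539, encodes a ubiquitin ligase that removes Frizzled receptors from the cell surface. It had 3.07 FPKM in K79S, 2.04 FPKM in K82S and 3.47 FPKM in K86S, and 3.20 FPKM in W83S, 2.81 FPKM in W89S and 2.60 FPKM in W90S. The WT libraries all lay within the range of the KO libraries, and the spread over all 6 was 1.71 times, the narrowest of the 7 genes. The log2 fold change was -0.02, with a 95% interval from -0.45 to 0.40, and its sign changed with the scaling of the libraries.

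**Figure D2:**
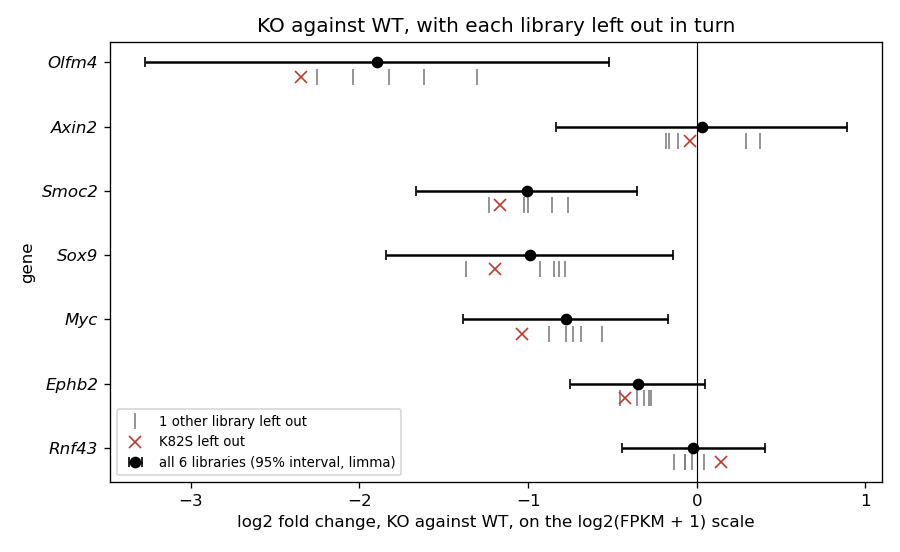
Fitted log2 fold change, KO against WT, computed from log2(FPKM + 1) (horizontal axis) for each placed gene (vertical axis), as a black point with its 95% interval from limma, with grey bars for the values when 1 library other than K82S was left out and a red cross for the value without K82S. Olfm4, Smoc2, Sox9, Myc and Ephb2 stay below 0 without each single library, and Axin2 and Rnf43 lie on both sides of 0.

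Since FPKM is divided by transcript length, the levels of the genes can be set beside each other. In WT, Olfm4 was the highest at a mean of 43.9 FPKM and stood apart from Axin2 at 6.68 FPKM, with no overlap of their libraries. Axin2, Smoc2 (5.64 FPKM), Myc (4.54 FPKM), Sox9 (4.18 FPKM) and Rnf43 (2.87 FPKM) followed, and each overlapped the next, while Ephb2 at 1.56 FPKM lay apart below Rnf43. In KO, Olfm4 at 12.3 FPKM and Axin2 at 6.61 FPKM overlapped, and Axin2 stood apart from Rnf43 at 2.86 FPKM. Below it, Myc (2.34 FPKM), Smoc2 (2.24 FPKM), Sox9 (1.503 FPKM) and Ephb2 (1.00 FPKM) each overlapped the next. Rnf43 was thus number 6 of 7 in WT and number 3 of 7 in KO by its mean, at nearly the same level in both.

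Libraries of 1 genotype were not alike over the 7 genes. The lowest library was K79S for 3 genes, K86S for 3 and K82S for 1, and the highest was a WT library for 6 of 7. The shares of all rows with these extremes were not computed, so these counts are not read as a trait of the genes. Summed over all rows, K79S and K86S were also the lowest, at 393152 and 421135 FPKM, against 465901 to 495362 FPKM in the other libraries. Each gene was set against its own mean over the 6 libraries, on the log2(FPKM + 1) scale. The median difference over the 7 genes was -0.47 in K79S, -0.05 in K82S and -0.52 in K86S, and 0.13 in W83S, 0.47 in W89S and 0.20 in W90S. K82S was the KO library nearest to the WT libraries, and W83S the WT library nearest to K82S.

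Genes of cycling cells and of Paneth cells, which also lie in the crypt, differed between the libraries in a like order. The 9 placed genes of cycling cells summed to 30.1 FPKM in K79S, 61.6 FPKM in K82S and 34.8 FPKM in K86S, and to 51.9 FPKM in W83S, 63.4 FPKM in W89S and 71.0 FPKM in W90S. The 7 genes of Paneth cells summed to 618 FPKM in K79S, 4302 FPKM in K82S and 1202 FPKM in K86S, and to 2380 FPKM in W83S, 8719 FPKM in W89S and 6639 FPKM in W90S. For both lists K82S lay above W83S, and K79S and K86S were the lowest of the 6. All 9 cycling cell genes and all 7 Paneth cell genes had a log2 fold change below 0, with medians of -0.62 and -1.77, and 0 of either list passed the thresholds. An unadjusted p under 0.05 from limma was found for 2 of the 9 and 0 of the 7, where 9.64% of all rows had such a p and were lower in KO. Over all rows tested, 57.7% had a log2 fold change below 0, and the median was -0.06. The part of crypt content in the values of the 7 genes was not tested.

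**Figure D3:**
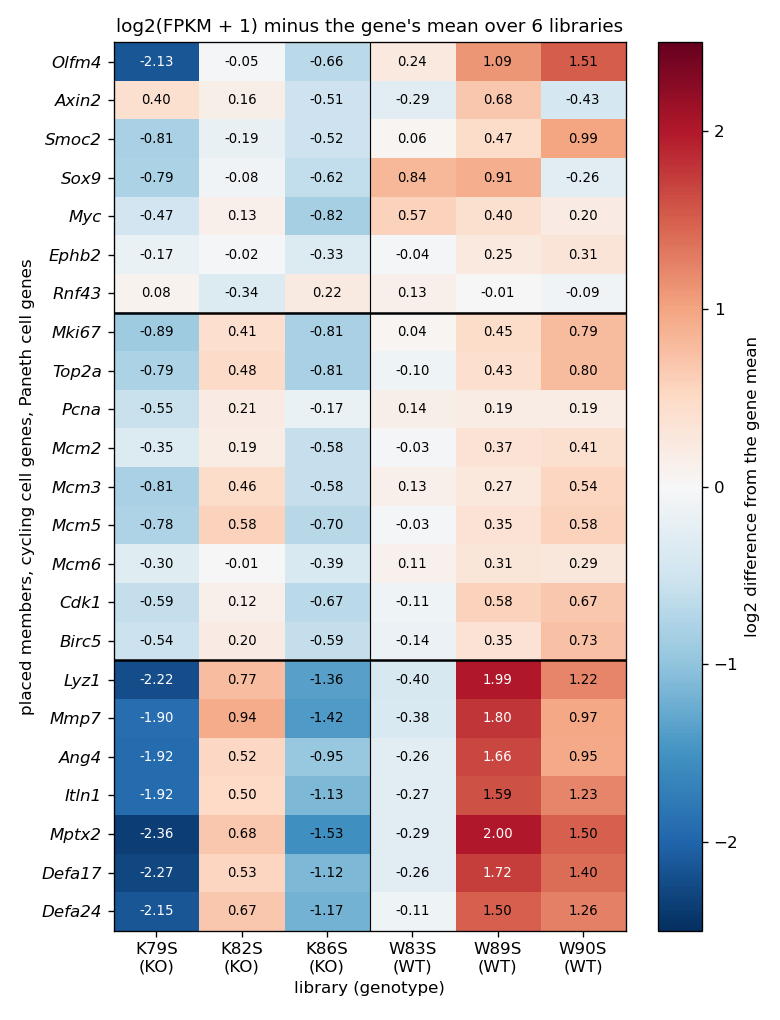
Difference of log2(FPKM + 1) from each gene's mean over the 6 libraries (colour and printed value, log2 scale), for the 7 placed genes on top, the 9 cycling cell genes in the middle and the 7 Paneth cell genes below, with KO libraries on the left and WT libraries on the right. K79S and K86S are blue for all genes of cycling and Paneth cells, while K82S is red for the Paneth cell genes and for the cycling cell genes except Mcm6.

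The genes whose profile over the 6 libraries was most like that of Olfm4 were alpha-defensin genes, the antimicrobial peptide genes of Paneth cells, and their pseudogenes. Likeness was measured as the root mean square difference of the 2 profiles, each centred on its own mean of log2(FPKM + 1), over all placed genes that passed the limit on low values. The 5 nearest were Defa31 (0.26), AY761184 (0.27), Defa23 (0.27), Defa-ps7 (0.31) and Defa-ps16 (0.42), of which Defa-ps7 and Defa-ps16 are named as pseudogenes. Defa31 had 71.8 FPKM in K79S, 459.7 FPKM in K82S and 217 FPKM in K86S, and 393 FPKM in W83S, 1092 FPKM in W89S and 1101 FPKM in W90S. As for Olfm4, K79S was the lowest and W90S the highest, but K82S lay above W83S. Alpha-defensin genes are near-identical copies, and reads can be split among them, so the single values of Defa31, Defa23, Defa-ps7 and Defa-ps16 are uncertain. With a pseudocount of 0.1, 4 of the 5 genes were again among the nearest. For Lgr5 no such search could be made, as it was not placed.

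Genes that carry the Wnt signal, other genes of the crypt base, and Notch and BMP genes were set beside them. Of 88 genes on 6 lists, 44 were placed and 40 tested, and 0 passed the thresholds, with 6 of the 40 at an unadjusted p under 0.05 from limma, a share near the 12.5% of all rows. Genotypes did not overlap for 4 of the 40, with KO lower for 1 and higher for 3, and 17.2% of all rows did not overlap. Of the 13 ligand and secretion genes only Wls, which escorts Wnt proteins to the cell surface, was placed, at 0.703, 2.10 and 0.499 FPKM in KO and 0.988, 1.32 and 0.558 FPKM in WT, each in the order used above. Its genotypes overlapped, and the log2 fold change was 0.05.

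Of the 13 receptors and co-receptors 7 were tested, and their median log2 fold change was 0.08, with 6 of 7 above 0. Fzd5, a Frizzled receptor of the crypt epithelium, was the highest of them, with 22.9, 18.7 and 20.1 FPKM in the KO libraries and 15.6, 17.2 and 20.3 FPKM in the WT libraries. Lgr4, the R-spondin receptor that is expressed more widely than Lgr5, had 15.0, 17.6 and 10.1 FPKM in KO and 13.4, 11.7 and 11.7 FPKM in WT. Ryk, a Wnt-binding receptor with an inactive kinase domain, had 9.70 to 13.3 FPKM in KO and 9.67 to 13.2 FPKM in WT. The genotypes overlapped for all 7 receptors. Of the 13 inhibitors only Kremen1, a receptor for Dickkopf proteins, was placed, with 1.37 to 1.78 FPKM in KO and 1.19 to 1.47 FPKM in WT.

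Of the 17 genes of the destruction complex and the TCF factors 12 were tested, with a median log2 fold change of 0.05. Ctnnb1, which encodes beta-catenin itself, was the highest with 146, 168 and 154 FPKM in the KO libraries and 144, 180 and 147 FPKM in the WT libraries, a log2 fold change of -0.01. Gsk3a, a kinase that marks beta-catenin for destruction, had 41.3 to 49.4 FPKM in KO and 40.1 to 43.8 FPKM in WT. Csnk1a1, the kinase that primes beta-catenin for Gsk3, had 21.4, 25.9 and 25.3 FPKM in KO and 16.2, 19.0 and 19.99 FPKM in WT. The KO libraries of Csnk1a1 lay above the WT libraries, at a log2 fold change of 0.38 with an SE of 0.15 (limma, adjusted p = 0.393). Tcf7l2, the only TCF factor that was placed and the gene of this list with the largest difference, had 6.45, 5.30 and 4.68 FPKM in KO and 3.86, 3.61 and 4.03 FPKM in WT. It too was higher in every KO library, with a log2 fold change of 0.41, and it was named after its values were seen.

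Of the 19 other crypt base and stem cell genes 14 were placed and 11 tested, with a median log2 fold change of -0.11 and 8 of 11 below 0. The 14 placed genes summed to 72.3, 83.3 and 88.2 FPKM in KO and 87.9, 91.1 and 101 FPKM in WT. For this sum K86S was the highest KO library and lay above W83S, unlike the sums of cycling and Paneth cell genes. The 3 highest were Ets2, a transcription factor with 20.5 to 28.4 FPKM in KO and 20.6 to 23.8 FPKM in WT, Hopx, a marker of reserve stem cells with 14.0 to 18.1 FPKM in KO and 10.03 to 27.0 FPKM in WT, and Sp5, a Wnt target with 5.42 to 17.6 FPKM in KO and 6.92 to 12.8 FPKM in WT. The genotypes of these 3 overlapped, and their log2 fold changes lay between -0.11 and 0.09. Lower members of the list, named after their values were seen, differed more in the direction of Olfm4. Slc12a2, a sodium, potassium and chloride cotransporter, had 1.95, 5.71 and 2.40 FPKM in KO and 8.86, 7.23 and 5.63 FPKM in WT, which gave -0.999 as its log2 fold change. Lrig1, which restrains growth factor receptors in stem cells, had 2.44, 3.45 and 2.54 FPKM in KO and 6.56, 3.34 and 5.10 FPKM in WT, which gave -0.63. Rgmb, a BMP co-receptor, was lower in every KO library, at 3.75 to 5.06 FPKM against 5.31 to 7.24 FPKM, a log2 fold change of -0.49. These 3 had an unadjusted p under 0.05 and an adjusted p of 0.393 from limma. The genotypes overlapped for Slc12a2 and Lrig1. Both were highest in W83S, the library with gastric transcripts, which was the lowest WT library for Olfm4. The part of W83S in their differences was not tested. The median of the list was -0.29 without K82S. Of the 13 genes of Notch and BMP signalling 8 were tested, with a median of 0.11. Id1 and Id3, which encode inhibitors of differentiation induced by BMP, had 107 to 183 and 47.3 to 81.4 FPKM in KO and 84.6 to 181 and 41.4 to 66.7 FPKM in WT. Dll1, a Notch ligand of secretory precursors, had 5.30 to 15.2 FPKM in KO and 7.94 to 11.96 FPKM in WT. Dll4, another Notch ligand, named after its values were seen, had 3.79 to 5.32 FPKM in KO and 2.64 to 3.76 FPKM in WT. It was higher in every KO library, with a log2 fold change of 0.42 (limma, adjusted p = 0.393).

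**Figure D4:**
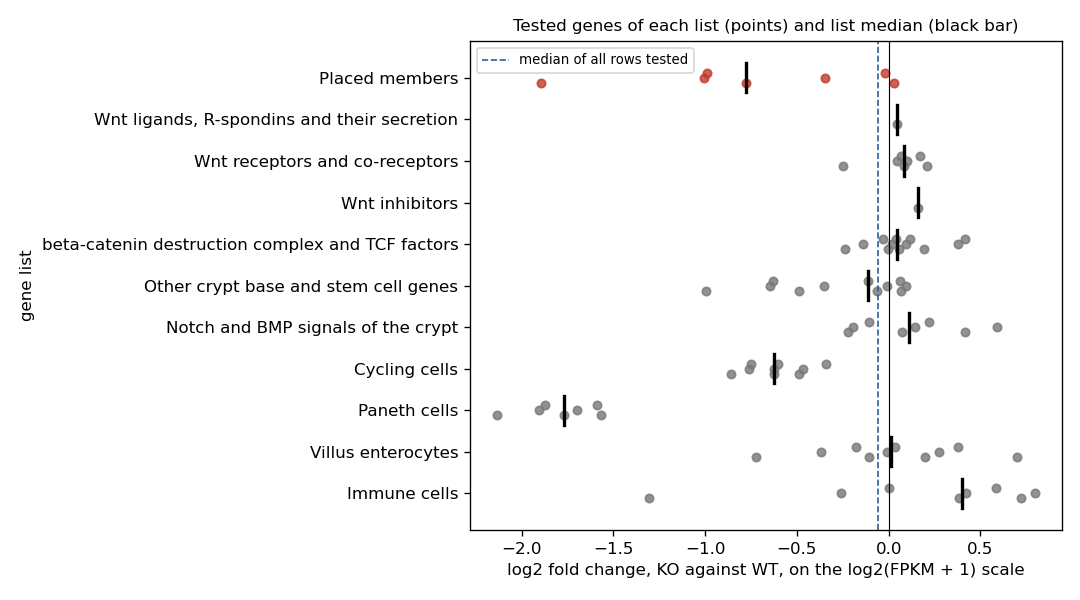
Fitted log2 fold change, KO against WT, computed from log2(FPKM + 1) (horizontal axis) for the tested genes of each list (points, with the 7 placed genes in red), with the median of the list as a black bar and the median of all rows tested, -0.06, as a dashed line. Among the lists drawn, which leave out gastric, pancreatic, smooth muscle and fibroblast genes, the medians of Paneth cells (-1.77), of the 7 genes (-0.78) and of cycling cells (-0.62) lie furthest to the left.

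Over the 7 genes the median log2 fold change was -0.78, against -0.06 over all rows tested, with 6 of 7 below 0. It ranged from -1.04 without K82S to -0.56 without K86S. Without W83S, the library with gastric transcripts, it was -0.69. Without both K82S and W83S, where 1111 rows or 8.88% passed, Olfm4 and Smoc2 passed the thresholds, with log2 fold changes of -2.70 and -1.39 (limma, adjusted p = 0.0477 and 0.0387). That pair was chosen after the values were seen and holds the KO library and the WT library that lie nearest to each other over these genes, so its removal widens the gap by choice and these calls are a description. The same holds for the call of Myc without K82S. Smooth muscle genes summed to 13.4 to 29.1 FPKM in KO and 10.6 to 33.6 FPKM in WT over 3 placed genes, and fibroblast genes to 3.85 to 10.3 FPKM in KO and 3.19 to 5.39 FPKM in WT over 3 placed genes. Immune cell genes summed to 42.2 to 189.7 FPKM in KO and 60.2 to 209 FPKM in WT over 8 placed genes, of which 4, Cd3e, Cd3g and Cd8a of T cells and Itgax of myeloid cells, were higher in all KO libraries than in all WT libraries, against 5.90% of all rows. These 4 were named after their values were seen. Most of the immune sum in every library but K79S was Lyz2, a close copy of the Paneth cell gene Lyz1, with a log2 fold change of -1.30. Without Lyz2 the other 7 genes summed to 24.6, 67.7 and 25.8 FPKM in KO and 19.2, 25.4 and 37.5 FPKM in WT. Of these sums the B cell gene Cd79a alone, named after its values were seen, gave 33.1 FPKM in K82S and 21.2 FPKM in W90S. Elsewhere Cd79a had 2.32 to 10.3 FPKM, and its log2 fold change was -0.26. The part of these cells in the values of the 7 genes was not tested.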

How the data were processed

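RNA of the middle small intestinal mucosa of 3 KO and 3 WT mice was sequenced as single-end reads. The authors removed adapters (trim-galore), aligned reads to mm10 (HISAT2), estimated gene levels (StringTie) and deposited FPKM values. Versions of these tools, the annotation and strand handling are not given in the sources used here. The paper lists the mapped reads of each library, which were fewest in K86S and next fewest in K79S. The part of this depth in the results was not tested. FPKM keeps no record of the reads behind a single value, so precision rests on the spread between mice. There were 0 unmapped columns.

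Identifiers were placed on their rows by the rank rule given with the results, and 10298 were not placed. Symbols, coordinates and transcript numbers came from GENCODE M21 on GRCm38, the build of mm10. A row, placed or not, was kept if at least 2 libraries reached 1 FPKM, and all 7 genes passed with at least 2 libraries of each genotype. Values on the log2(FPKM + 1) scale went into limma (version 3.58.1, R 4.3.3, trend, 6 libraries, no covariate, Benjamini-Hochberg over all rows) in place of the authors' edgeR, which needs counts. The fit was tested on simulated data. Figures were made in Python 3.11.15 with matplotlib 3.10.9.

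The 10 genes, the 6 lists of related genes and the marker lists of other cell types (cycling, Paneth, enterocyte, smooth muscle, fibroblast, immune, gastric, pancreatic) were chosen with earlier results of these data known. Named from the tested genes of the 6 lists were the 3 with the highest mean FPKM in each list and any past the thresholds. Tcf7l2, Slc12a2, Lrig1, Rgmb and Dll4 were added after their values were seen. Alternatives were the pseudocount, the limit on low values, the scaling, the variance trend, array weights and each library left out. Leaving out both K82S and W83S was chosen after seeing the data.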

Additional observations from a re-analysis of the deposited data

How the results depend on the processing

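With pseudocounts of 0.1 and 0.01 the median log2 fold change of the 7 genes was -1.02 and -1.06, and 0 rows of the whole table passed with either. With array weights 2 rows passed. Leaving out 1 library at a time gave 0 to 1184 rows, 0 to 1 of the 7 genes past the thresholds and a median of the 7 genes from -1.04 to -0.56, and the upper end of both counts came from leaving out K82S. Without both K82S and W83S, 1111 rows and 2 of the 7 genes passed. The median of the other crypt base and stem cell genes ranged from -0.29 to -0.061 when a library was left out, and that of the destruction complex and TCF factors from 0.051 to 0.12. The log2 fold change of Rnf43 turned to 0.13 with libraries scaled to an equal sum, 0.049 with median-ratio scaling, 0.051 with quantile normalization and 0.089 with array weights, and ranged from -0.14 to 0.14 over the libraries left out. That of Axin2 ranged from -0.18 to 0.38 over the libraries left out. Scaling to an equal sum moved the median of all rows by 0.15, and relative to that median the 7 genes lay at -0.84, against -0.72 as deposited. Olfm4, Smoc2, Sox9, Myc and Ephb2 kept their direction under every alternative in which they were tested, and the adjusted p of Olfm4, Smoc2 and Sox9 from limma lay between 0.0568 and 0.760 over single changes of the processing. No paired analysis was possible because the labels do not say which KO and WT mice form a pair. Ephb2 could not be tested under the limit of 2 FPKM. The number of reads behind a single value is not recorded, which limits low genes such as Ephb2 most. The cause of these differences was not tested.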

Other observations

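Most Wnt ligands and inhibitors lay low in the order of identifiers, where rows could not be assigned. Of the 88 genes on the lists of Wnt, crypt base, Notch and BMP genes, 38 were not placed. Those of them beside a K79S value above 0 all lay under 1 FPKM in W83S, if their place in the order held to within 40 ranks. The highest of the 10 ligands and R-spondins that were not placed was Wnt6, with at most 0.909 FPKM in W83S, while Wnt3, the Wnt of Paneth cells, had 0.133 to 0.138 FPKM. Of the 8 inhibitors that were not placed, Znrf3, the partner of Rnf43, had 0.578 to 0.593 FPKM and Notum, an enzyme that inactivates Wnt proteins, 0.0857 to 0.0891 FPKM. Rspo3, an R-spondin of the stroma, Wnt9b, Grem1 and Lef1 stood beside a K79S value of 0, since only 20659 rows were above 0 in K79S. Such identifiers are tied in the order, so no level is given for them. Tcf7 had 0.845 to 0.868 FPKM. These are levels in 1 WT library, and no comparison between genotypes could be made for them.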
